A study of Mus musculus with 4 samples.

Results

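Peaks of H3K79me2, a dimethyl mark on a lysine within the globular part of histone H3, were mapped by chromatin immunoprecipitation and sequencing in mouse dendritic cells given PBS or lysine. Those that lay deep inside long genes are described here. A peak was taken as deep when its midpoint lay inside a protein-coding gene of at least 100 kb and more than 10 kb from both ends of that gene. Peaks within 1 kb of an end of any other protein-coding gene were left out. Gene ends came from RefSeq on GRCm38, and of 21900 protein-coding genes 2429 (11.1%) were long enough, spanning 622 Mb. The rule took 2381 of the 21731 peaks of both lists, 1428 of 11926 in PBS and 953 of 9805 in lysine. It used positions alone and neither the strength of a peak nor the treatment.

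The cells, bone marrow-derived dendritic cells (BMDCs), present antigen to T cells and are grown from marrow in culture, here from the mouse strain C57BL/6J. One group received PBS, a buffered saline. The other received lysine, an essential amino acid, at 18 mM for 6 h, and the labels give no time for PBS. The 4 samples are 1 H3K79me2 library and its input for each group, and the labels name no agent, allele or animal age beyond this. The 2 broad peak lists were compared, so there was no spread between replicates to test against, and each value below describes these 2 libraries. Read totals are not in the lists and the depth is unknown. Intervals are exact 95% intervals (Clopper-Pearson for shares, conditional binomial for ratios of counts), and they cover counting error only. The fold and the −log10 q given for a peak were computed by the authors. Both depend on depth and enrichment, so folds named for both libraries describe each peak in its own list and are no measure of change.

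Dot1l writes this mark on nucleosomes while RNA polymerase II transcribes through them. The mark is usually densest just downstream of the start of an active gene and thins out along the gene body. Inside a long gene it is therefore far from the usual place, unless another promoter or an enhancer lies there. In leukaemias with MLL fusions, Dot1l is drawn to long stretches of target genes through partners of the elongation machinery.

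Some deep peaks lay on an inner transcription start of their host gene, and the sequences before 5 such starts are shown because both libraries had a peak there. They are the 250 bases before a start in the RefSeq promoter table (GRCm38.p6), printed 5′ to 3′ on the strand of the gene. Among 33 genes with such a shared window, these 5 had the highest mean fold over both libraries. Capitals mark CpG dinucleotides, the places where cytosine can be methylated.
Hk1: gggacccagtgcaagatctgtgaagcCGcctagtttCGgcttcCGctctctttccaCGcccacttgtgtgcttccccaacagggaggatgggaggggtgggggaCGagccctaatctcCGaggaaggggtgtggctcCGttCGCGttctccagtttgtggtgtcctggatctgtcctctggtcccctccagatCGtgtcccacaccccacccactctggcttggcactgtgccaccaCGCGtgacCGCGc
Arntl: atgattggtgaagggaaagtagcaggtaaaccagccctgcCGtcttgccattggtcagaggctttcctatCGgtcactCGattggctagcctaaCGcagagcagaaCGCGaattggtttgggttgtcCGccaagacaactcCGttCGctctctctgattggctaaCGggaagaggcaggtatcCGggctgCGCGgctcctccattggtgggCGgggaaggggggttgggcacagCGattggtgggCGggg
Hdac4: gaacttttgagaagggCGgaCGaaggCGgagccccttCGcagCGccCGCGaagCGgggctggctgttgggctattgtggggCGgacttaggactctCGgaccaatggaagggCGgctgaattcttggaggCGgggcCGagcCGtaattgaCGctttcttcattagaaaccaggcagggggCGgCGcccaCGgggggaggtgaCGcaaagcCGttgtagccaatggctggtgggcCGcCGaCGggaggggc
Lims1: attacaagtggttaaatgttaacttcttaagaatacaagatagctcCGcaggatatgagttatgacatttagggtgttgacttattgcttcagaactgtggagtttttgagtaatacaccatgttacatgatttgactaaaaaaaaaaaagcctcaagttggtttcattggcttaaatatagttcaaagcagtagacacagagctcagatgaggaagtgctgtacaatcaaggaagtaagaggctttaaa
Slc7a11: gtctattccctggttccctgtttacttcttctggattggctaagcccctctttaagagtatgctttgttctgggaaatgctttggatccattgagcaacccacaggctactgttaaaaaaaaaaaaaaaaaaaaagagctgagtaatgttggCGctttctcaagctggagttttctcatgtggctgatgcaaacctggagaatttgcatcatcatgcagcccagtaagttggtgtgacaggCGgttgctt
The windows lie at chr10:62340422-62340671 (Hk1, minus strand), chr7:113207215-113207464 (Arntl, plus strand), chr1:92180342-92180591 (Hdac4, minus strand), chr10:58351713-58351962 (Lims1, plus strand) and chr3:50443614-50443863 (Slc7a11, minus strand). All are on GRCm38. Each start lies between 15.4 kb (Hdac4) and 55.5 kb (Slc7a11) downstream of the gene's outer 5′ end.

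Hk1 encodes hexokinase 1, which carries out the first step of glycolysis. The peak over its inner start was 622 bp wide with a fold of 7.47 in PBS, and 601 bp with 8.70 in lysine. Arntl encodes the activating core factor of the circadian clock, and its peaks were 729 bp wide with a fold of 5.78 in PBS and 672 bp with 8.89 in lysine. Hdac4, a class IIa histone deacetylase, had peaks of 739 bp (fold 8.09) in PBS and 682 bp (6.55) in lysine. Both libraries thus had a compact peak of nearly the same width at each of these places. Lims1 is an adaptor of integrin adhesions, with 473 bp (fold 7.15) in PBS and 474 bp (6.76) in lysine. Slc7a11 is the cystine and glutamate exchanger of the plasma membrane, with 557 bp (7.39) and 560 bp (5.15).

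The 5 sequences differ in base composition. Hdac4 had 23 CpG in 250 bases, with a GC content of 65.2% and an observed to expected CpG ratio of 0.930. Arntl had 16 CpG, 58.8% and a ratio of 0.775, and Hk1 14 CpG, 62.8% and 0.570. Lims1 had 1 CpG with 34.8% (0.140), and Slc7a11 had 2 with 43.2% (0.172). Starts with a deep peak in both libraries therefore included CpG-rich and CpG-poor sequence. A GC box (GGGCGG) and a CCAAT box were found in Arntl and Hdac4, both strands being searched. The PU.1 core GAGGAAGT was found in Lims1 together with CCAAT, and CCAAT was found in Slc7a11. In Hk1 no match was found to any motif searched, which also included the ETS core CCGGAAG, the TATA box TATAAA and the AP-1 site TGANTCA. The CCAAT box is found by its letters before 33.8% of all 32851 listed starts, the GC box before 32.7% and the PU.1 core before 2.44%. A match is therefore a description of the sequence and not a bound site.

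Of 4 classes of peaks by location, deep peaks had the lowest ratio of lysine to PBS. PBS had 1428 deep peaks over 711 kb and lysine 953 over 453 kb. The ratio of lysine to PBS was 0.667 in number (interval 0.614 to 0.725) and 0.637 in length. Near gene ends, within 1 kb of an end of a protein-coding gene, PBS had 5126 peaks and lysine 4788, a ratio of 0.934 (0.898 to 0.972). Elsewhere inside genes the ratio was 0.756 (0.710 to 0.804) and between genes 0.757 (0.717 to 0.799). The interval of the deep class lay below that of peaks near gene ends and met the intervals of the other two classes. Deep peaks made up 12% of the PBS list (11.4 to 12.6) and 9.72% of the lysine list (9.14 to 10.3). Of the shortfall of the whole lysine list against PBS, 475 peaks (22.4%) were deep and 338 (15.9%) near gene ends. Larger parts lay between genes (744, 35.1%) and elsewhere inside genes (564, 26.6%).

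Part of this ratio moved with the length of the lists. With the 9805 peaks of highest −log10 q kept in each list, 1090 deep PBS peaks stood against 953 in lysine, a ratio of 0.874 (0.801 to 0.955). Under the same limit the ratio was 1.06 near gene ends (1.02 to 1.11), 0.969 elsewhere inside genes and 0.962 between genes. With the same limit of a −log10 q of at least 5 in both lists, which a difference in depth would move unequally, PBS had 368 deep peaks and lysine 205, a ratio of 0.557 (0.467 to 0.663), against 0.873 (0.824 to 0.925) near gene ends. The deep class had the lowest ratio of the 4 classes in all 3 comparisons. Fewer peaks in a list are not a measured loss of the mark, and the part of depth was not tested. A bulk library also cannot tell fewer marked cells from less mark per cell.

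**Figure D1:**
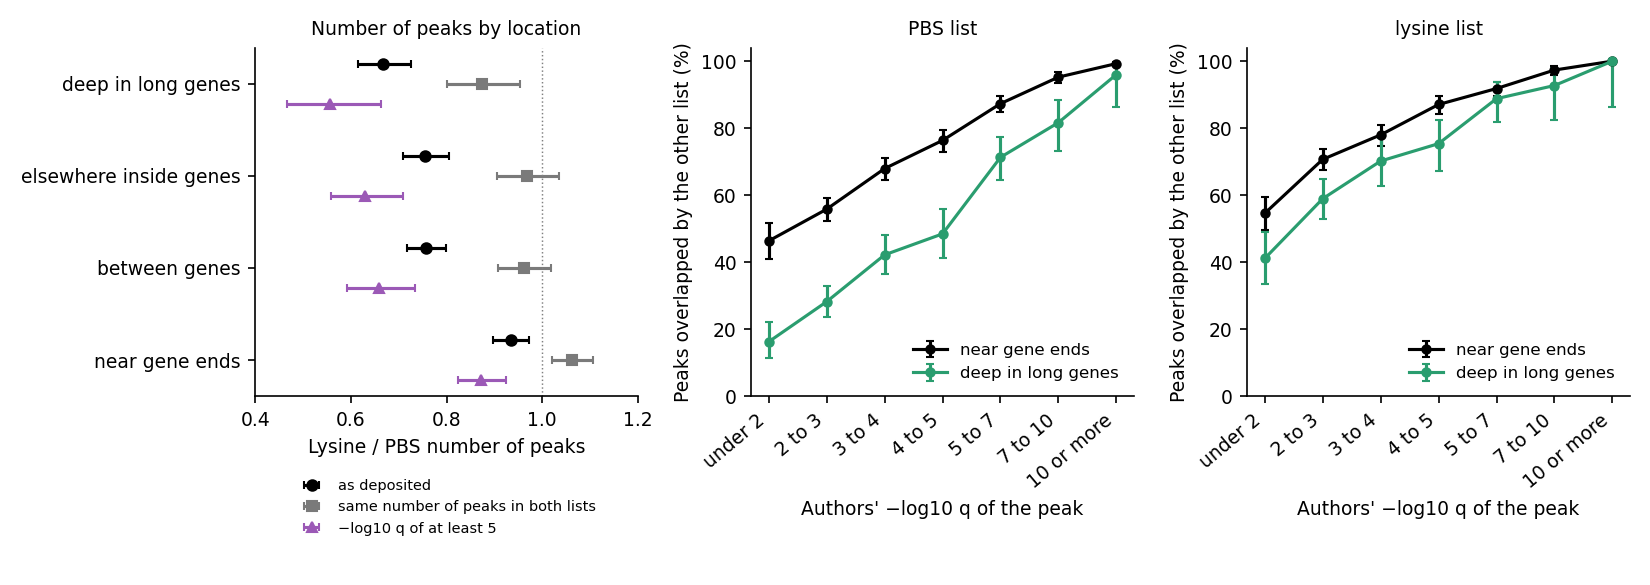
Left: lysine to PBS ratio of the number of peaks in 4 locations, as deposited, with equal list lengths and for strong peaks, with exact 95% intervals; the deep class lies lowest each time, at 0.667, 0.874 and 0.557. Middle and right: share of peaks (%) overlapped by the other list in bins of the authors' −log10 q, deep against near gene ends, with exact 95% intervals; deep peaks lie below peaks near gene ends in each PBS bin.

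Deep peaks also found a counterpart in the other library less often. Of the deep PBS peaks, 642 (45.0%, 42.4 to 47.6) shared 1 bp or more with a lysine peak, against 61.9% of all PBS peaks and 78.1% (76.9 to 79.2) of those near gene ends. Of the deep lysine peaks, 640 (67.2%, 64.1 to 70.1) overlapped a PBS peak, against 75.3% of all lysine peaks and 83.9% near gene ends. Both shares were below their backgrounds. Peaks between genes were closer to the deep ones, with 49.8% in PBS and 65.8% in lysine. A lower number of lysine peaks in a class also limits how many of its PBS peaks can have a partner. The low PBS share is therefore not separate from the low ratio in number. With lists of equal length the deep shares were 53.0% in PBS and 60.4% in lysine.

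The gap to gene ends was wider among weak than among strong peaks. Deep PBS peaks with a −log10 q under 2 were overlapped in 16.2%, against 46.3% near gene ends. At 3 to 4 the shares were 42.2% and 67.9%, and at 5 to 7 they were 71.3% and 87.3%. At 10 or more, 48 of 50 deep PBS peaks (96.0%) had a partner, against 99.3% near gene ends. Peaks between genes were close to the deep ones in most PBS bins, with 23.1% under 2, 42.3% at 3 to 4 and 71.6% at 5 to 7, so the pattern is not particular to deep peaks. In the lysine list the shares under 2 were 41.1% and 54.6%, and at 10 or more all 25 deep peaks had a partner. Deep peaks of this strength were thus found in both libraries, with 2 exceptions in PBS.

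Deep peaks were narrower and of lower fold than peaks near gene ends, and close to the other two classes. Their median width was 410 bp in PBS (quartiles 340 and 522) and 398 bp in lysine (333 and 497), against 504 and 492 bp near gene ends. Between genes the medians were 423.5 bp and 409 bp, and elsewhere inside genes 431.5 bp and 428 bp. A width of 1 kb or more was reached by 97 deep PBS peaks (6.79%) and 52 lysine peaks (5.46%), against 11.9% and 9.61% near gene ends. Median fold within the list was 4.29 in PBS and 4.18 in lysine, where peaks near gene ends had 4.89 and 4.81 and peaks between genes 4.33 and 4.27. A fold of at least 8 was reached by 9 deep PBS peaks (0.63%) and 6 lysine peaks (0.63%). Near gene ends it was reached by 412 (8.04%) and 329 (6.87%). The shares were 1.53% and 0.905% between genes, and 2.12% and 1.26% elsewhere inside genes. A single narrow block was found within 1351 of the deep PBS regions and 907 of the lysine regions, several blocks within 25 and 12.

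Width and strength differed between deep peaks with and without a partner. In PBS the 642 with a partner had a median width of 465.5 bp and a fold of 4.72, and the 786 without one 368.5 bp and 4.01. In lysine the 640 with a partner had 423 bp and 4.42, and the 313 without one 363 bp and 3.91. Of the 786 PBS peaks without a partner, 82 (10.4%) had a −log10 q of at least 5, and of the 313 lysine peaks 18 (5.75%).

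The strongest deep peaks lay in genes of varied function. In PBS they were in Zranb3, a DNA translocase of stalled replication forks (fold 9.72), Xrcc4, a factor of DNA end joining (9.53), and Daam1, a formin that builds actin filaments (9.07). Zfp608, a zinc finger gene, had 8.84 and Jazf1, a zinc finger cofactor, 8.67. All 5 had a lysine partner, with a fold of 7.88, 4.38, 8.12, 6.00 and 5.58 in that order. In the lysine list the strongest was in Lrrfip1 (10.6, with 7.70 in PBS), which encodes a nucleic acid binding protein. Arntl and Hk1 came next, at the inner starts shown above. Jarid2, a partner of the Polycomb complex PRC2, had 8.41 (6.47 in PBS), and Arhgap31 8.22 (5.51 in PBS). The Zranb3 peak ranked 158 among all 11926 PBS peaks by fold and the Lrrfip1 peak 63 among 9805 in lysine.

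The widest deep peaks of each list are given with their partners. They were chosen as the widest of their list, so narrower partners follow at least in part from that choice. Carmil1, a regulator of actin capping, held the widest in PBS (2480 bp, chr13:24103092-24105571), overlapped in lysine by 353 bp of peak. Peak1, a pseudokinase of the cytoskeleton, followed with 2323 bp against a 317 bp partner. Aim2, a sensor of cytosolic DNA, had 2199 bp against 299 bp, and the cohesin subunit Stag1 had 2176 bp against 555 bp. In lysine the widest lay in Kansl1, a subunit of the NSL acetyltransferase complex (3370 bp, chr11:104439692-104443061), with a 418 bp partner in PBS. Next was Tnrc6b, an Argonaute partner in microRNA silencing, with 2600 bp against 1064 bp in PBS. Rbpj, the DNA-binding factor of Notch signalling, had 2109 bp against 1646 bp, and Sdccag8, a centrosomal protein gene, 1956 bp against 1818 bp. The peaks of Stag1, Aim2, Rbpj and Kansl1 lay within 1 kb of a listed start of their gene.

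Deep peaks were rarer at large distances from the start of the gene, and large distances come from the longest genes, whose density was low overall. A start is listed for 1866 of the 2429 long genes, and these held 1140 deep peaks in PBS and 760 in lysine. Counted per Mb of eligible sequence, PBS had 5.33 deep peaks at 10 to 20 kb downstream of a listed start, 3.58 at 40 to 80 kb and 1.08 beyond 160 kb. Lysine had 3.68, 2.21 and 0.668 at these distances. At 5 to 10 kb, where counts were 19 and 7, the densities were 4.41 and 1.62. With each gene cut into 5 equal parts from the 5′ side, PBS went from 2.96 per Mb in the first to 2.18 in the last, and lysine from 1.92 to 1.32 with its highest value, 2.04, next to the first. The ratio between the libraries stayed between 0.605 and 0.740 over the 5 parts. The median distance to the nearer gene end was 50.6 kb in both lists.

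**Figure D2:**
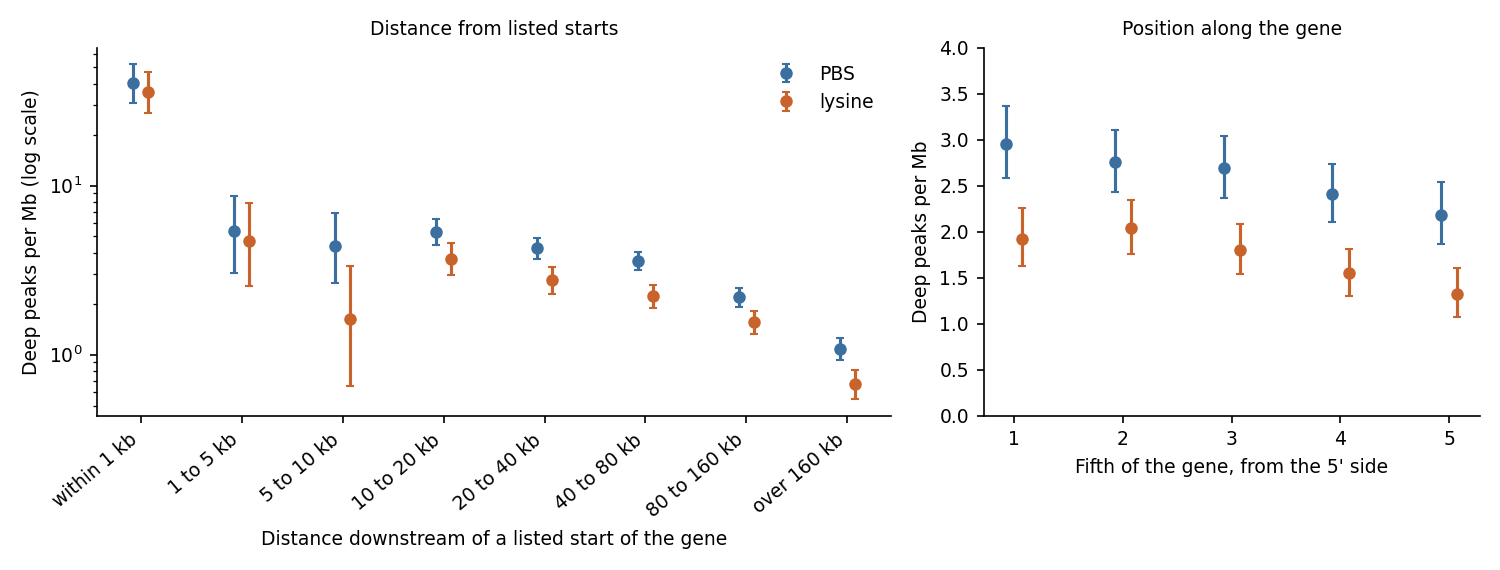
Left: deep peaks per Mb of eligible sequence (log scale) by distance downstream of a listed start of the host gene; right: the same for 5 equal parts of the gene from the 5′ side on a linear scale, both with exact 95% intervals from counting. The density is 40.4 in PBS and 35.6 in lysine within 1 kb of a listed start and 1.08 and 0.668 beyond 160 kb.

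Density was highest within 1 kb of a start listed inside the gene. There PBS had 60 deep peaks (40.4 per Mb) and lysine 53 (35.6 per Mb), a ratio of 0.883 with an interval of 0.599 to 1.30. Away from such starts PBS had 1080 and lysine 707, a ratio of 0.655 (0.595 to 0.720). These intervals overlap, so a difference between the ratios was not resolved at these counts. Peaks at a start were wider, with a median of 491 bp against 408 bp in PBS and 468 bp against 393 bp in lysine. Their median fold was no higher in PBS (4.29 in both sets) and 4.24 against 4.15 in lysine. In PBS 65.0% of the peaks at a start (51.6 to 76.9) had a partner, against 43.3% (40.4 to 46.3) away from starts. In lysine it was 73.6% (59.7 to 84.7) against 65.9% (62.3 to 69.4). Peaks at a start were 5.26% of the deep PBS peaks with a listed start and 6.97% in lysine, so most of the peaks lay away from any start listed for their gene.

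Only a small share of the internal starts had a deep peak. The table lists 793 internal starts in 544 long genes, placed as deep peaks are. A deep peak lay within 1 kb of 68 in PBS (8.58%, 6.72 to 10.7) and of 63 in lysine (7.94%, 6.16 to 10.1). Both libraries had one at 43 starts, PBS alone at 25 and lysine alone at 20. The 88 starts with a peak were in 76 genes, the 5 printed above included.

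Internal starts with a deep peak were richer in CpG. Sequence was called CpG-rich with a GC content over 50% and an observed to expected CpG ratio over 0.6. Of the 88 starts with a peak 47 were CpG-rich (53.4%, 42.5 to 64.1), of the 705 without one 90 (12.8%, 10.4 to 15.5), and of all 32851 listed starts 30.8%. Median GC content was 62.2% against 49.6%, and the median CpG ratio 0.695 against 0.314. GGGCGG was found before 56.8% of the starts with a peak and 25.1% of those without, and TATAAA before 4.55% and 12.9%. The GC box itself contains CpG. CCAAT differed little, with 36.4% and 32.5%. GAGGAAGT was found before 3.41% and 1.42%, CCGGAAG before 6.82% and 1.70%, and TGANTCA before 5.68% and 8.09%. Starts of the same gene share its chromatin and are not independent, so these shares describe the starts listed.

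**Figure D3:**
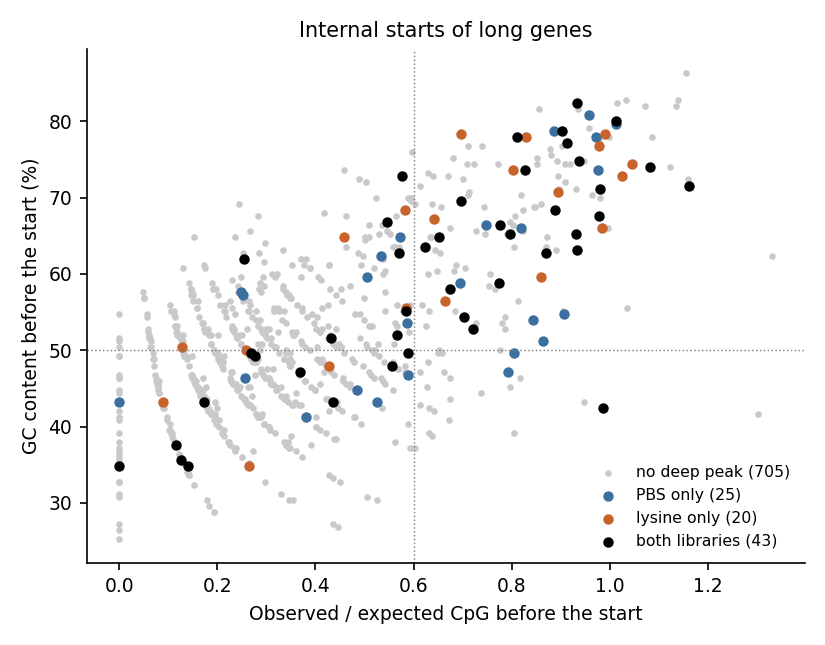
Each point is 1 of 793 internal starts of long genes, placed by the observed to expected CpG ratio (x axis) and the GC content in percent (y axis) of the 250 bases before it; colours give the libraries with a deep peak within 1 kb and dotted lines the limits of CpG-rich sequence. The upper right field holds 47 of the 88 starts with a peak and 90 of the 705 without.

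Long genes held deep peaks unevenly. A deep peak was found in 727 of the 2429 long genes in PBS (29.9%) and in 575 in lysine (23.7%). Both libraries had one in 482 genes, PBS alone in 245 and lysine alone in 93, and 1609 genes had none. In 432 of the 482 genes at least 1 position was shared. Genes with 3 or more deep peaks numbered 174 in PBS and 88 in lysine, and these held 709 and 326 of the peaks. Neighbouring deep peaks of a gene lay a median of 23.3 kb apart in PBS and 26.8 kb in lysine, and 15.4% and 10.0% of the gaps were 5 kb or less.

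The share of long genes with a deep peak did not follow gene length in one direction. In PBS it was 28.9% at 100 to 150 kb, 34.9% at 200 to 300 kb and 26.0% at 500 kb or more. The density per Mb went down with length, from 5.05 in the shortest to 0.730 in the longest class in PBS and from 3.27 to 0.479 in lysine. The ratio between the libraries was 0.648 in the shortest class and 0.657 in the longest, with 0.705 as its highest value at 300 to 500 kb. It was below 1 on all 19 autosomes, from 0.553 on chromosome 15 to 0.815 on chromosome 7, while the X had 4 deep peaks in PBS and 7 in lysine.

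Deep peaks accompanied peaks at the gene's own ends. In PBS 236 of 524 long genes with a peak near an end also had a deep peak (45.0%, 40.7 to 49.4), against 491 of 1905 without one (25.8%, 23.8 to 27.8). In lysine it was 185 of 484 (38.2%, 33.9 to 42.7) against 390 of 1945 (20.1%, 18.3 to 21.9). Most genes with a deep peak, however, had no peak near either end in the same list.

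Per gene, the length of deep peaks was usually shorter in lysine. Of the 820 genes with a deep peak in either library, 568 had less in lysine and 252 more, with a median difference of −300.5 bp. A difference of 500 bp or more, the size used here to call a gene, was found in 231 genes (28.2%) toward less and in 55 (6.71%) toward more. Among all 8472 protein-coding genes with any covered length, counted from end to end, the called shares were 11% and 4.72%, with a median difference of −38 bp. These genes are of any length and all their peaks count, so their shares are not a like measure to those of deep peaks. In the lists as deposited, the deep length was at least 2 kb shorter in lysine in 23 long genes and at least 2 kb longer in 0. The 0 did not hold under every setting, as given below for Rbm47 and Dym. With lists of equal length 156 genes were called toward less and 84 toward more.

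**Figure D4:**
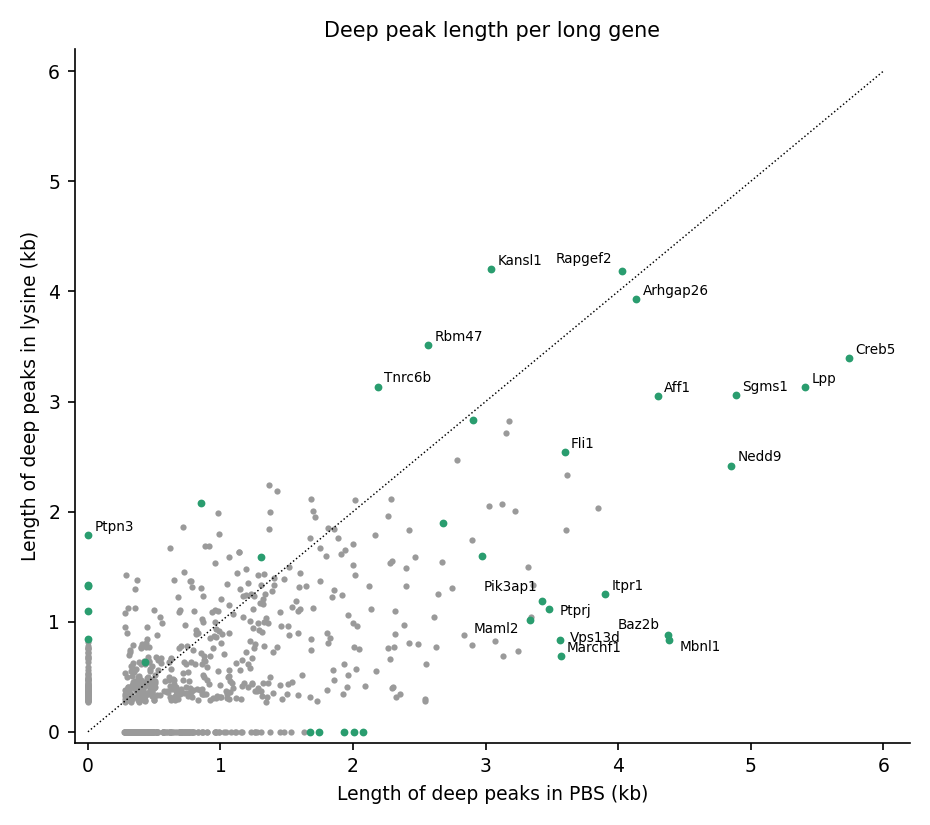
Length of deep peaks (kb) in PBS (x axis) and lysine (y axis) for the 820 long genes with a deep peak in either library, 1 point per gene; green points are genes named by rule and the dotted line marks equal length. Below the line lie 568 genes and above it 252; Creb5 lies farthest right and Kansl1 highest.

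The genes with the most deep length held many separate peaks. Creb5, a transcription factor of the cAMP response element family (chromosome 6, 53287226 to 53700364), had 9 deep peaks over 5745 bp in PBS and 5 over 3397 bp in lysine. Of its PBS peaks 4 were shared. Lpp, a LIM domain protein of focal adhesions (chromosome 16, 24393350 to 24992578), had 11 over 5413 bp in PBS and 7 over 3131 bp in lysine, 6 of them shared. Its strongest peak, 540.6 kb from the gene's lower end, was shared and was the strongest of the gene in both lists. Sgms1, a sphingomyelin synthase of the Golgi (chromosome 19, 32122727 to 32389885), had 11 over 4892 bp and 7 over 3057 bp, and each of the 7 lysine peaks had a PBS partner. In these 3 genes nearly every lysine peak had a PBS partner, the exceptions being 1 in Creb5 and 1 in Lpp, while 5 PBS peaks of Creb5, 5 of Lpp and 4 of Sgms1 had none.

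Nedd9, a scaffold of integrin signalling, had 8 deep peaks over 4853 bp in PBS and 5 over 2418 bp in lysine, all 5 with a PBS partner. Aff1, a scaffold of the super elongation complex and a fusion partner of MLL, had 6 over 4301 bp and 4 over 3047 bp. Fli1, an ETS factor of blood cells, had 5 over 3596 bp and 3 over 2544 bp. A wide Fli1 peak 87.2 kb from the lower end was 1625 bp wide in PBS and 1442 bp wide in lysine. In Creb5, Lpp, Sgms1, Nedd9, Aff1 and Fli1 the difference stayed toward less in lysine under all 5 alternatives tried per gene. Its size moved with the settings. With a −log10 q of at least 5 it was −71 bp in Fli1, against −1052 bp, and −679 bp in Lpp, against −2282 bp. With a fold of at least 4 it was −2684 bp in Aff1, against −1254 bp. In Nedd9 it was −652 bp with lists of equal length, against −2435 bp. The values of Arhgap26, Rapgef2 and Rbm47 also depended on the settings. Arhgap26 had 10 peaks over 4136 bp and 9 over 3934 bp, and Rapgef2, an exchange factor for Rap, 6 over 4032 bp and 6 over 4183 bp. With a −log10 q of at least 2 the difference was −1267 bp in Rapgef2, against 151 bp, and −938 bp in Arhgap26, against −202 bp. Rbm47, an RNA-binding protein, had 4 over 2565 bp in PBS and 5 over 3513 bp in lysine, a difference of 948 bp. That difference was −369 bp with a fold of at least 4. With a −log10 q of at least 2, and also with lists of equal length, it was 2502 bp.

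**Figure D5:**
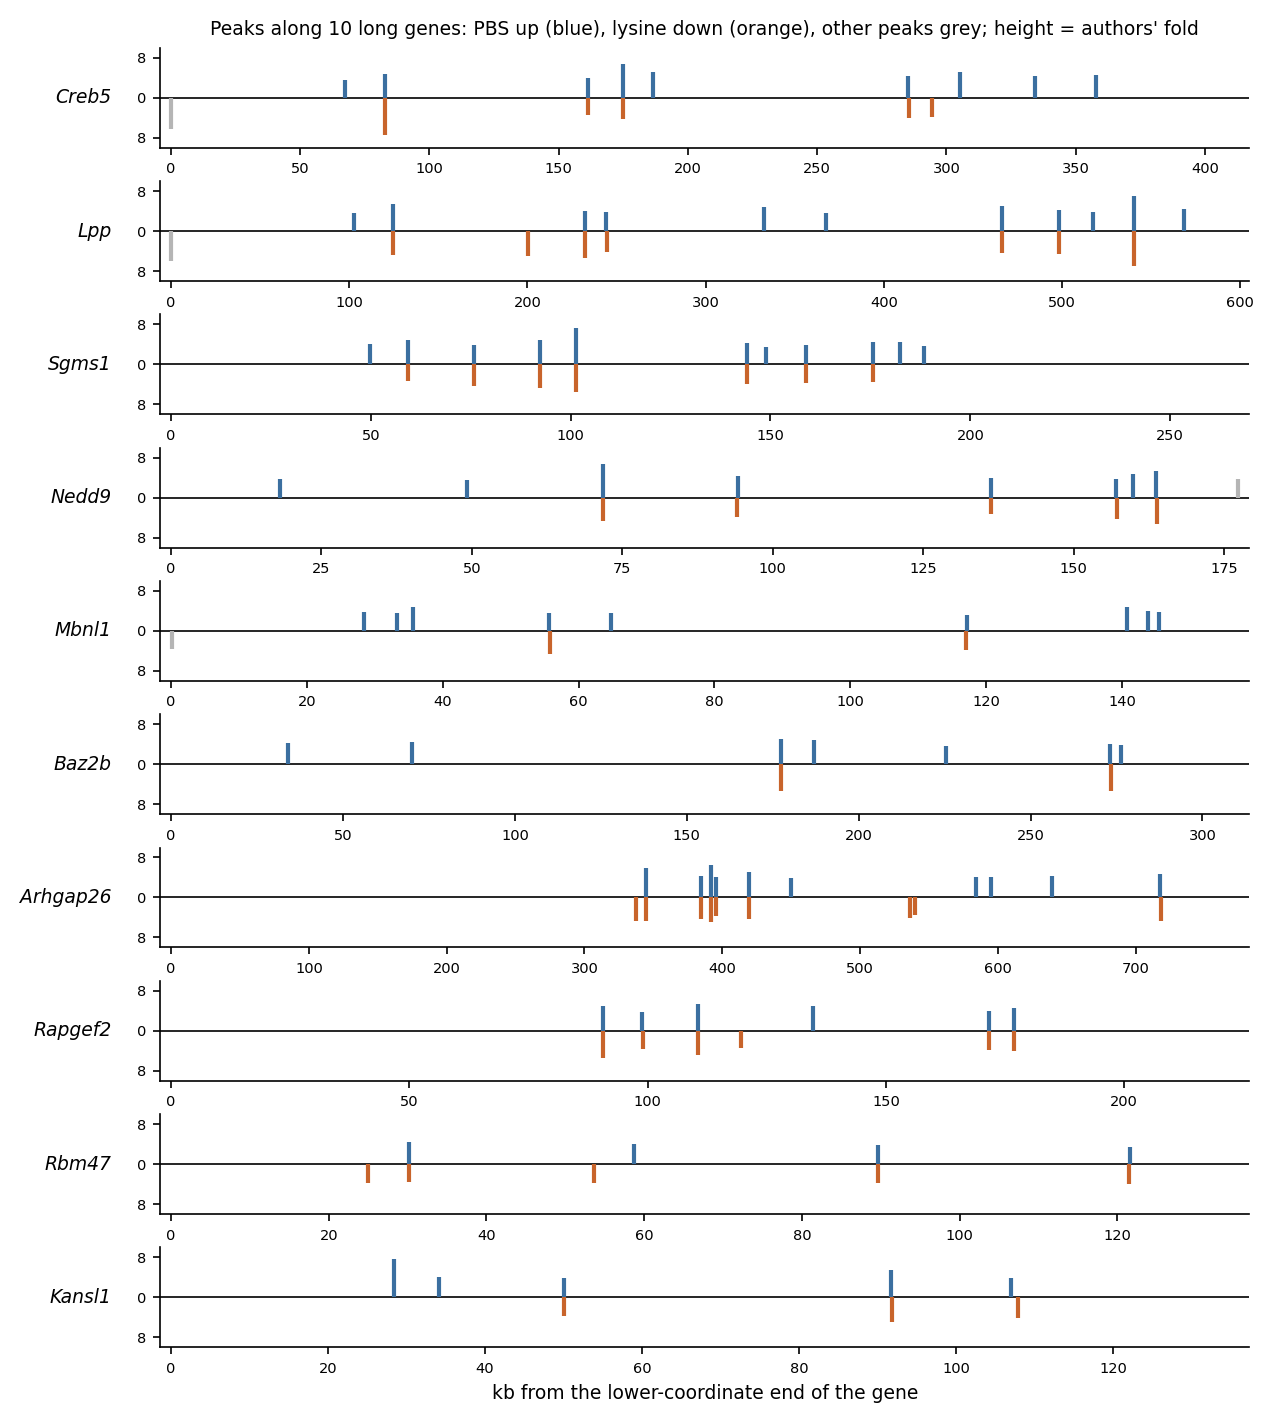
Peaks with a midpoint inside 10 long genes, by distance in kb from the lower-coordinate end of the gene (x axis) and the authors' fold (bar height); PBS points up, lysine down, and peaks that are not deep are grey. Among deep peaks Lpp has 11 bars up and 7 down with 6 in register, and Mbnl1 has 9 up and 2 down. Both have 1 grey bar down at the gene's lower end. Each of these is overlapped by a PBS peak that is not drawn, its midpoint lying outside the gene.

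The largest shortfalls in lysine were in genes with 4 to 9 deep peaks in PBS. Mbnl1, a splicing regulator (chromosome 3, 60472559 to 60629750), had 9 deep peaks over 4385 bp in PBS and 2 over 833 bp in lysine. No PBS peak of Mbnl1 had a fold above 4.69, and both lysine peaks had a partner. Baz2b, a bromodomain protein (chromosome 2, 59899363 to 60209913), had 7 over 4375 bp and 2 over 881 bp. Marchf1, the ubiquitin ligase that turns over MHC class II at the surface of dendritic cells, had 4 over 3566 bp and 1 over 689 bp. Its shared peak was its strongest in PBS (fold 6.64, with 5.10 in lysine), and the other 3 PBS peaks had no lysine partner. Vps13d, a lipid transfer protein, had 7 over 3560 bp and 2 over 838 bp, and Itpr1, a calcium channel of the endoplasmic reticulum, 6 over 3904 bp and 4 over 1248 bp.

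Several of these differences rested on peaks of low significance. With a −log10 q of at least 5 required in both lists, the difference was 0 bp in Mbnl1, 484 bp toward lysine in Baz2b and 236 bp toward lysine in Marchf1, against −386 bp in Vps13d and −791 bp in Itpr1. Baz2b overlaps the coding gene Gm13570 and Vps13d overlaps Dhrs3, so the host of a peak there is not certain.

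More deep length in lysine was found in few genes. Ptpn3, a tyrosine phosphatase, had 0 bp in PBS and 1 peak of 1784 bp in lysine, near a listed start of the gene. Apc, a scaffold of the beta-catenin destruction complex, had 0 and 1336 bp. Gmds, an enzyme of GDP-fucose synthesis, had 0 bp and 2 peaks over 1326 bp. Dym, a Golgi protein gene, had 856 bp in 1 peak and 2075 bp in 3 peaks, and Kansl1 3041 bp in 5 peaks and 4200 bp in 3. In Kansl1 the extra length came from the single peak of 3370 bp, and the strongest PBS peak of the gene (fold 7.71) had no lysine partner. With a −log10 q of at least 5 the Kansl1 difference was −1056 bp, and for Apc, Gmds, Dym and Ptpn3 it was 0 bp. With a −log10 q of at least 2 it was 2075 bp in Dym, against 1219 bp, and 1784 bp in Ptpn3. At that limit it was 1159 bp in Kansl1, 299 bp in Gmds and 0 bp in Apc. With lists of equal length it was 2075 bp in Dym.

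Other genes had peaks that count as deep in a single library. For PBS these were led by Jmjd1c, a JmjC domain protein, with 5 peaks over 2076 bp, Samd12 with 4 over 2008 bp, and Chst11, a chondroitin sulfotransferase, with 1 of 1935 bp. Pid1, a phosphotyrosine-binding domain protein, had 4 over 1742 bp and Niban1 3 over 1673 bp. In lysine Ptpn3, Apc and Gmds were followed by Nedd4l, a ubiquitin ligase (3 over 1099 bp, 1 of them overlapped by a PBS peak that is not deep by the rule), and Epb41l2, a membrane skeleton protein (1 of 845 bp). With a −log10 q of at least 5 the difference was −509 bp in Jmjd1c, which overlaps the coding gene Reep3, and 0 bp in the other named genes of both kinds.

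Function groups were taken from 11 gene lists, chosen with earlier results of these data known. The values of a list therefore describe its chosen members and are no test of its function. Density is given per Mb of gene length because the genes differ in size. Over all long genes it was 2.3 in PBS and 1.54 in lysine, and the length ratio was 0.638. Of all long genes 29.9% had a deep peak in PBS and 23.7% in lysine. Transcription factors of blood and dendritic cells had 8.58 and 6.09 per Mb. In this list 22 of 29 long genes had a deep peak in PBS and 22 in lysine, over 34.8 kb and 21.1 kb. The length ratio was 0.606. Of its 24 genes with a deep peak in either library 10 were called toward less and 2 toward more, where 28.2% and 6.71% of all long genes with a deep peak were called. Maml2, a coactivator of Notch, had 5 deep peaks over 3336 bp in PBS and 3 over 1014 bp in lysine. Runx1 and Foxp1, both factors of blood cell development, are added here after their values were seen. Runx1 had 6 peaks over 2837 bp in PBS and 2 over 875 bp in lysine, and Foxp1 had 2 over 1370 bp and 6 over 1996 bp.

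Surface receptors and transporters of myeloid cells had 7.70 per Mb in PBS and 5.60 in lysine. Of 25 long genes 20 had a deep peak in PBS and 17 in lysine, and 11 had less and 9 more deep length in lysine, with a median of −85 bp. Over all long genes 568 of 820 had less and 252 more, with a median of −300.5 bp. Ptprj, the receptor phosphatase CD148, had 4 peaks over 3481 bp and 3 over 1115 bp, and overlaps the coding gene Gm46752. Slc7a11 had 4 over 2675 bp and 3 over 1896 bp, the peak at its inner start being the strongest in both libraries. Cd36, a scavenger receptor added after its values were seen, had 4 over 1700 bp and 5 over 2007 bp.

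Chromatin regulators had 7.34 and 4.19 per Mb, with a deep peak in 18 of 34 long genes in PBS and 11 in lysine. Beside Kansl1 and Baz2b, Trps1, a GATA-type repressor, had 6 peaks in both libraries over 2905 bp and 2828 bp, 5 of them shared. Of the list of Dot1l with its elongation and fusion partners 5 of 26 genes were long, and 3 had a deep peak in PBS and 2 in lysine. Beside Aff1, Afdn, an adherens junction protein and MLL fusion partner, had 1 of 431 bp in PBS and 1 of 631 bp in lysine. Mllt3, a reader of acetylated histones and the third of these, had 350 bp in PBS and 0 bp in lysine.

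Cytoskeleton and adhesion scaffolds had 4.41 and 2.96 per Mb and a ratio of 0.640, with 26 and 20 of 52 genes. Kinases and second messenger enzymes had 5.0 and 3.11 per Mb and a ratio of 0.613, with 36 and 24 of 60 genes. Of its 38 genes with a deep peak 12 were called toward less and 2 toward more, shares near those over all long genes. Pik3ap1, the PI3-kinase adaptor BCAP, had 5 peaks over 3426 bp in PBS and 2 over 1188 bp in lysine.

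Genes of endolysosomal traffic and autophagy had 4.88 and 3.30 per Mb, with 31 and 27 of 58 long genes and a length ratio of 0.625. Osbpl9, an oxysterol-binding protein relative, had 3 peaks in both libraries at the same places, over 2970 bp in PBS and 1601 bp in lysine. Genes of RNA processing and the microRNA pathway had 5.86 and 3.66 per Mb, with a deep peak in 14 of 31 genes in each library. Of the 16 with one in either library 8 were shorter and 8 longer in lysine, against 568 and 252 of 820 over all long genes. Called toward less were 6 of the 16 and toward more 3, where 28.2% and 6.71% were called over all long genes with a deep peak. Here Tnrc6b had 4 peaks over 2185 bp in PBS and 2 over 3136 bp in lysine. The list of ubiquitin ligases and deubiquitinases had 3.70 and 2.43 per Mb, with 18 and 15 of 44 genes. Usp6nl, counted in this list, is a GTPase-activating protein that switches Rab5 off and not a deubiquitinase. It had 1 peak of 1303 bp in PBS and 2 over 1587 bp in lysine. Its difference of 284 bp was −99 bp with a −log10 q of at least 2.

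The 50 long genes of neurons and muscle taken as silent had 0.275 deep peaks per Mb in PBS and 0.162 in lysine. Many of them are very long, and over all long genes of 500 kb or more the density per Mb of eligible sequence was 0.730 and 0.479. A deep peak was found in 10 of them in PBS and in 7 in lysine. Sox5, a SOX factor of cartilage and neurons, had 5 peaks over 1597 bp in PBS and 3 over 1120 bp in lysine. Macrod2, an ADP-ribose hydrolase, had 2 over 913 bp and 1 over 437 bp. The length ratio of this list was 0.647, close to the 0.638 of all long genes, and a length ratio below 1 was found in each of the 11 lists.

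A few deep peaks lay very far from any end of their gene. One in Pde4d, a cAMP phosphodiesterase, was 608 kb from the nearer end, with 528 bp and a fold of 4.95 in PBS and 310 bp and 4.59 in lysine. In Fhit, a gene at a fragile site, a peak 589 kb from the nearer end was found in both libraries, and another at 709 kb in lysine only, 270 bp from a listed start. Nrxn3, a neurexin of synapses, had 1 in PBS at 569 kb without a lysine partner.

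In genes of 90 to 100 kb, just under the limit, 112 peaks in PBS and 72 in lysine would otherwise have counted (ratio 0.643). In genes of 100 to 110 kb there were 132 and 86 (0.652). At 8 to 10 kb from the nearer end of a long gene there were 28 and 18 (0.643), and at 10 to 12 kb 42 and 25 (0.595). Ends of non-coding genes lay within 1 kb of 67 deep PBS peaks (4.69%) and 39 lysine peaks (4.09%), mostly of long non-coding RNAs (50 and 31).

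Markers of the labelled cell type carried the mark in part. Of 26 dendritic cell markers 16 had a peak on the gene in PBS and 12 in lysine, over 14.1 kb and 8.75 kb. Itgax, Flt3 and Cd74 had one in both, while Ccr7, H2-Aa, Spi1, Irf4, Batf3, Clec9a and Fscn1 were at 0 bp in both. Of 14 macrophage and monocyte markers 9 and 5 had one, over 3.70 kb and 2.67 kb, so the marker counts do not set dendritic cells apart from macrophages. Of 13 neutrophil markers 3 and 1 had one, of 10 mast cell markers 1 (Hdc) in both, of 14 T and NK cell markers 3 in both and of 11 stromal and endothelial markers 2 in both. All 11 B cell markers were at 0 bp in both lists. Marker length was lower in lysine for all 6 lists with a peak, and its part in the values above was not tested.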

How the data were processed

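H3K79me2 ChIP-seq and input libraries came from formaldehyde-fixed BMDCs and had paired-end reads, per the labels' protocols. Groups were taken from the sample titles. The broad and gapped peak lists of the 2 H3K79me2 libraries were used. Input libraries were not analysed here.

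For read processing, the submitters' processing notes list cutadapt 1.18 and Trimmomatic 0.38 with FastQC, and further Bowtie2 2.3.4.1 and Picard. They also list MACS2 2.1.2, ChIPseeker and GRCm38 as build. The role of each tool, the calling thresholds and how inputs were used were not given in the sources used here. Peaks were deposited per library. The lists have no header, so columns were read by the MACS2 layout. The deposited fold is a linear ratio of a peak's signal to its local background. Significance was deposited as −log10 p and −log10 q, with a lowest −log10 q of 1.37 (PBS) and 1.32 (lysine). As deposited, the score equals the −log10 q times 10, cut to a whole number, with 0 exceptions in PBS and 1 in lysine. These values depend on depth and enrichment, so they served to rank, filter or describe peaks and not to measure change between lists, and no count test applies. A shared limit can cut the lists unequally if depth differs. Depth per sample is unknown, and the number of peaks sets the precision.

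Gene ends were read from RefSeq (GRCm38.p6), without strand or exons, so exons and introns were not separated. Strand and starts came from the RefSeq promoter table, which lists none for 563 long genes, among them the 127 on chromosome 18. In gapped lists, blocks of 1 bp were left out. A peak inside overlapping long genes counted in each of them. All 699 entries of the 11 function and 7 marker lists matched, and 442 of the genes were long. A function list is not reported here. The members, lists and rules were chosen with earlier results of these data known. Named genes are the 10 with the most deep length, the 5 with the largest difference each way and the 5 found in 1 library each way. Also named are 2 from each function list by length, and the 5 widest, 5 highest-fold and 3 farthest peaks. Runx1, Foxp1, Cd36 and Mllt3 fall outside these rules, and their differences were not checked under the alternatives. The printed starts were picked by fold, after their values were seen, since no genome of the build was used here. Alternatives changed the gene length, distances, peak limits, overlap and region type.

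The tools were Python 3.11.15 with pandas 2.3.3, numpy 2.4.6 and scipy 1.17.1. Figures were drawn with matplotlib 3.10.9. Overlaps differed from bedtools 2.31.1 in 0 peaks. On simulated data 400 of 400 peaks were classified as planted.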

Additional observations from a re-analysis of the deposited data

How the results depend on the processing

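The ratio of lysine to PBS in deep peaks stayed below 1 under every alternative tried, between 0.557 and 0.874 in number and between 0.524 and 0.815 in length. Keeping 9805 peaks in both lists gave 0.874 in number and 0.815 in length, with 53.0% of PBS and 60.4% of lysine deep peaks overlapped. A −log10 q of at least 5 left 368 and 205 peaks in 287 and 185 genes, with ratios of 0.557 and 0.524 and 37.5% of PBS peaks overlapped, since the limit also removes partners. A fold of at least 4 left 912 and 572 peaks, with a length ratio of 0.583 and 41.3% of PBS peaks overlapped, and a −log10 q of at least 2 gave a length ratio of 0.604. Genes of 200 kb or more held 665 and 458 deep peaks in 310 and 246 genes, and with genes of 50 kb or more 1133 and 879 genes had one. An overlap of at least 50% of the peak left 40.2% of PBS and 63.3% of lysine peaks overlapped. Genes with at least 500 bp less in lysine were 97 with a −log10 q of 5 or more, against 231. Genes with at least 500 bp more were 15 with a −log10 q of 5 or more, against 55 as deposited. They were 33 at a fold of at least 4, 84 with equal lists and 34 by narrow blocks. Leaving out peaks within 1 kb of a listed start, an alternative chosen after seeing the data, gave 1344 and 888 peaks and a ratio of 0.661.

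Of 30 named genes called by 500 bp, 14 kept their direction under all 5 alternatives, 12 had a difference of 0 bp once a −log10 q of 5 was required, and 5 reversed. At that limit the difference of lysine minus PBS was 484 bp in Baz2b, 236 bp in Marchf1, −1056 bp in Kansl1 and −468 bp in Tnrc6b. By narrow blocks it was −926 bp in Kansl1 and −113 bp in Tnrc6b, and at a fold of at least 4 it was −369 bp in Rbm47. Of named genes under 500 bp, Rapgef2 went from 151 bp to between −1267 and −929 bp in 4 alternatives. Trps1 went from −77 bp to −1123 bp with a −log10 q of at least 5 and to 243 bp with equal lists. Sox5 went from −477 bp to 441 bp with equal lists, and Afdn from 200 bp to −431 bp at a fold of at least 4. The cause was not tested.

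No paired analysis was possible because each condition has 1 H3K79me2 library and the results come from no test. Leaving out a library in turn was not possible either. Fewer calls in a library cannot be told apart from lower depth or enrichment of that library.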

Other observations

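Starts of other genes inside long genes had deep peaks less often than inner starts of the host gene itself. Of 1261 such starts, 1239 of them of long non-coding RNAs, a deep peak lay within 1 kb of 39 in PBS (3.09%, interval 2.21 to 4.20) and of 28 in lysine (2.22%, 1.48 to 3.19). For the host genes' own inner starts these shares were 8.58% and 7.94%. Among the 47 starts of other genes with a peak in either library 12 were CpG-rich (25.5%, 13.9 to 40.3), and among the 1214 without one 36 (2.97%, 2.09 to 4.08). No test was made of these shares, and starts inside one gene are not independent.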
